A study of Mus musculus with 6 samples.

Results

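The genes of TNF signalling, the NF-kB pathway and the inflammatory mediators it controls were followed in the cerebral cortex of senescence-accelerated mice given sugarcane top ethanolic extract (STEE). The 35 genes were chosen by name, and every probe set annotated with one of these names was read, which gave 76 of 45077 probe sets and 35 of 22527 named genes. The study had already reported *Tnfrsf25*, *Traf6*, *Vcam1* and *Mmp9* as changed with STEE on these same arrays. Their values here are thus a second reading of the same data. In cortex of SAMP8 control mice the member farthest from SAMR1 was *Ptgs2*, encoding the inducible cyclooxygenase COX-2, whose authors' mean was 1.46-fold higher. Of all 22527 genes, 204 were at least as far above SAMR1, *Ptgs2* included. In STEE-fed SAMP8 mice the member farthest from the SAMP8 control was *Tnfrsf25*, encoding death receptor 3, whose authors' mean was 1.56-fold lower. Its signal, however, was below the median of the array and within the range of genes of other organs. Of all genes, 22 were at least as far below the SAMP8 control, *Tnfrsf25* included. At their brightest probe sets the remaining members lay within 0.27 of the SAMP8 control on the log2 scale in both comparisons. A dimmer probe set of *Nfkbia* differed by 0.28 between SAMP8 control and SAMR1. *Ptgs2* was a further 0.24 higher in STEE-fed mice.

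All 6 mice were males, 16 weeks of age per the labels, with 2 mice in each of 3 groups. By the study's methods, mice of this age were acclimatized, treated and tested before the cortex was taken. The tissue thus came from older mice. SAMP8 is a senescence-accelerated prone strain that shows early memory decline, and SAMR1 is the resistant strain used as the normal aging reference, so a SAMP8 against SAMR1 difference is a difference of strains of one age and not of old against young animals. The groups were SAMR1 + Water, SAMP8 + Water (SAMP8 control) and SAMP8 + STEE (STEE-fed SAMP8), the last given 20 mg/kg by mouth for 30 days and during 8 days of behavioral tests, while the other groups received an equal volume of water. All groups were housed singly, went through the same behavioral tests and, per the study's methods, drank BrdU, a label of dividing cells, during part of the treatment. RNA of the cortex was read on Affymetrix mouse array strips of the PM (perfect match) type, and the deposited tables hold 1 averaged log2 signal per group and probe set.

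Each group value below is therefore the authors' mean of 2 arrays, a difference has no error of its own, and no test was run on it. SAMP8 control minus SAMR1 is called the strain comparison and STEE-fed SAMP8 minus SAMP8 control the STEE comparison, and each was read against all genes of the array. A gene was counted as past the threshold at a log2 difference of at least 0.26, about 1.2-fold, in its probe set with the highest signal. In bulk tissue, fewer cells of a type and less RNA per cell cannot be told apart.

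TNF, interleukin-1 and microbial products bind receptors at the cell surface that recruit adaptors such as the TRAF proteins, MyD88 and IRAK1. These adaptors activate the IKK complex, which marks the inhibitor IkBα for degradation and frees NF-kB dimers to enter the nucleus. NF-kB then switches on cytokines, chemokines, adhesion molecules and COX-2 together with its own inhibitors, IkBα and A20. In brain the cytokines and pattern receptors are known mostly from microglia and vessels, while the kinases and NF-kB subunits are present in most cells, neurons included.

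Many members were of low signal. Of 35 members, 19 had a signal, meaning the mean of the 3 group means, no higher than the array's median probe set (4.15), which was 54.3% of the members against 42.3% of all genes. A list of 18 genes of other organs, such as liver albumin and the insulins, had signals between 2.41 and 4.96 at their brightest probe sets. The highest was *Cela1*, while the median of the list was 3.13. No brighter than *Cela1* were 21 members. All 3 cytokines of the interleukin-1 and interleukin-6 group and all 3 matrix genes were in the low class, all 3 IKK genes and both inhibitors were above the median, and most other roles held genes of both classes. Brightness belongs to each probe set and was not read as abundance between genes.

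**Figure D1:**
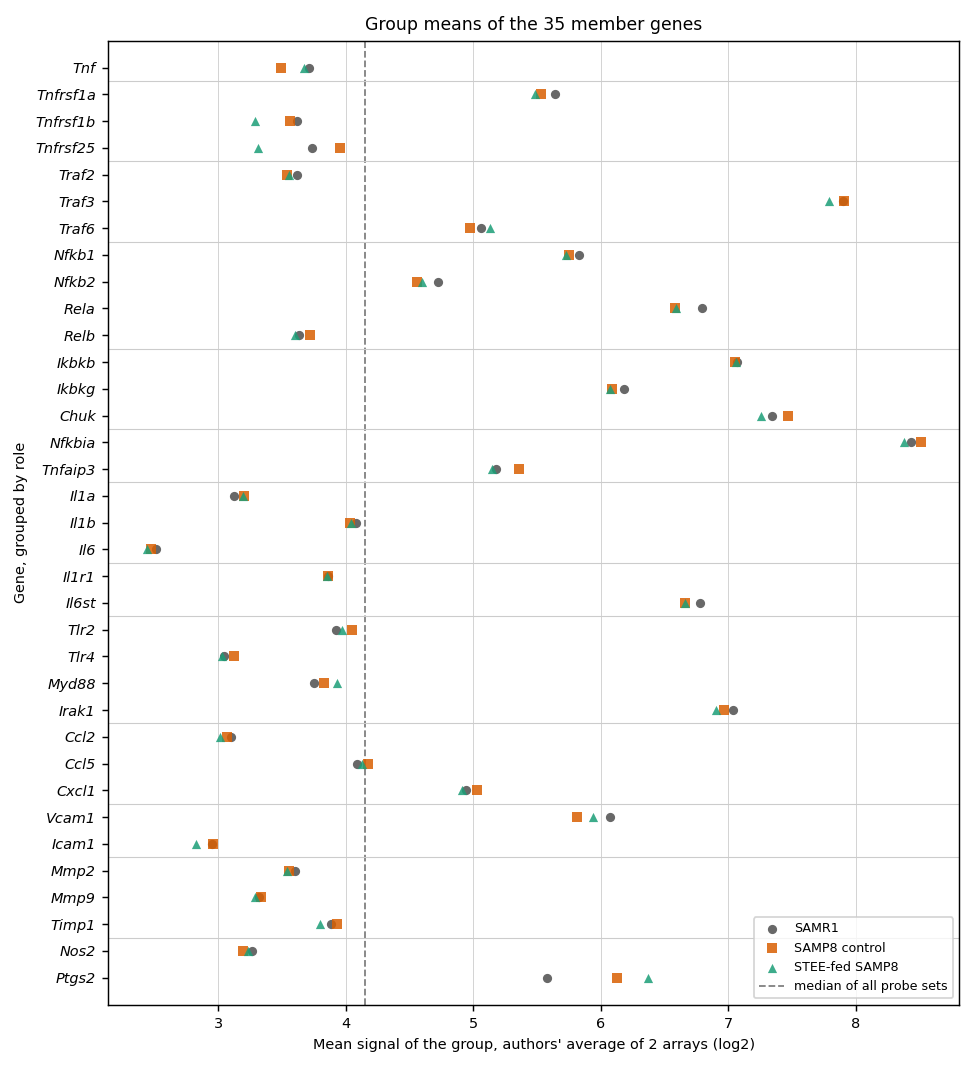
Group means of the 35 members, in log2 signal on the horizontal axis, with genes grouped by role on the vertical axis. Circles are SAMR1, squares SAMP8 control and triangles STEE-fed SAMP8, each the authors' average of 2 arrays, and the dashed line is the median of all probe sets (4.15). *Ptgs2* runs from 5.58 in SAMR1 to 6.37 in STEE-fed SAMP8, while *Tnfrsf25* lies lowest in STEE-fed SAMP8 at 3.31.

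Across the members, counts past the threshold were few. In the strain comparison, 1 of 35 members was higher (*Ptgs2*) and 1 was lower (*Vcam1*), against 3.95% of all genes higher and 3.44% lower. In the STEE comparison, 0 members were higher and 2 were lower (*Tnfrsf25* and *Tnfrsf1b*), against 1.23% and 1.08% of all genes. These are counts of 1 and 2 genes, and nothing particular to the pathway was read from them. Both comparisons use the SAMP8 control mean, so they are given side by side. The difference that leaves this mean out, STEE-fed mice against SAMR1, placed 1 member higher (*Ptgs2*) and 2 lower (*Tnfrsf25* and *Tnfrsf1b*), against 4.94% and 3.23% of all genes.

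Most members differed little. The median difference of the members was -0.02 in the strain comparison and -0.03 in the STEE comparison, against 0.0 over all genes in each. The median absolute difference was 0.08 and 0.07 for the members, close to 0.07 and 0.06 for all genes. By sign alone, 23 members were lower and 11 higher with STEE, where 10576 of all genes were lower and 10903 higher. Low-signal genes as a class leaned the same way, with 5265 lower and 3828 higher among all of them and 14 lower and 5 higher among the members. Of the members above the median signal, 9 were lower and 6 higher, against 5311 lower and 7075 higher of all genes in that class. Between the strains, 18 members were lower and 16 higher, against 11057 and 10613 of all genes. Between STEE-fed mice and SAMR1, 29 members were lower and 6 higher, against 11607 and 10078 of all genes. Above the median signal these were 14 and 2, against 5809 and 6774. In the low class they were 15 and 4, against 5798 and 3304. The signs were not tested.

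**Figure D2:**
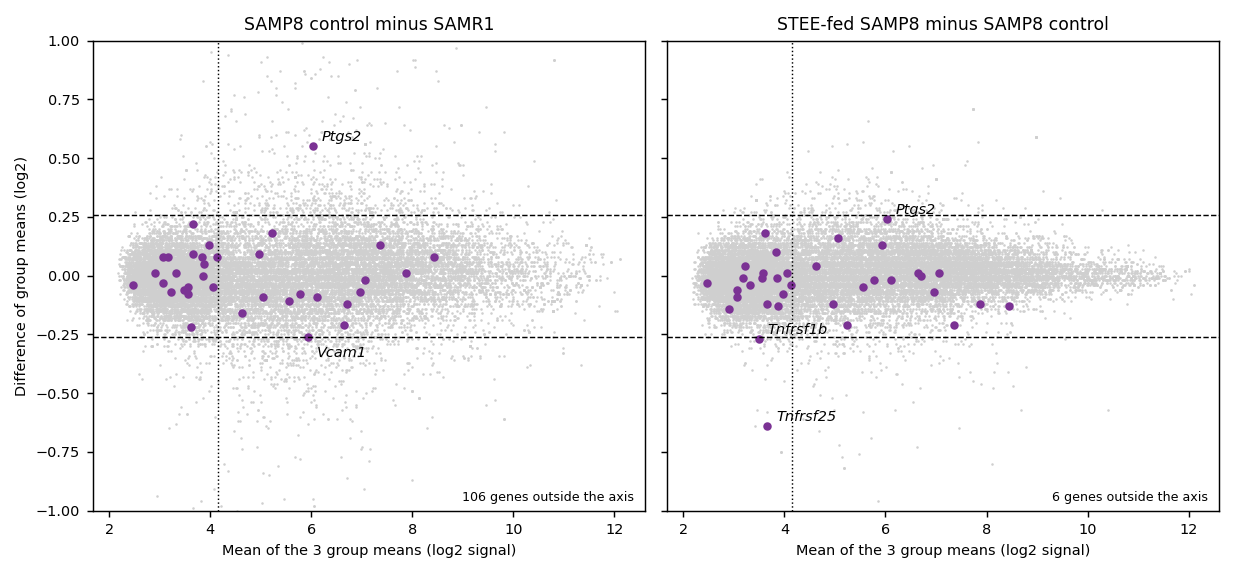
Difference of group means (log2, vertical axis) against signal (mean of the 3 group means, log2, horizontal axis) for all genes in grey and the 35 members in purple, with SAMP8 control minus SAMR1 on the left and STEE-fed SAMP8 minus SAMP8 control on the right. Dashed lines mark a difference of 0.26 either way and the dotted line the median signal of 4.15, and the members at or near the threshold are named: *Ptgs2* at 0.55 and *Vcam1* at -0.26 on the left, *Tnfrsf25* at -0.64, *Tnfrsf1b* at -0.27 and *Ptgs2* at 0.24 on the right.

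*Tnf*, the ligand that opens the pathway, had means of 3.71 in SAMR1, 3.49 in the SAMP8 control and 3.67 in STEE-fed mice. The SAMP8 control was thus the lowest group, by -0.22 against SAMR1, and STEE-fed mice were 0.18 above it and within 0.04 of SAMR1. None of these differences passed the threshold, and the signal was in the low class.

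Of its receptors, *Tnfrsf1a*, the broadly expressed death domain receptor TNFR1, had means of 5.64, 5.53 and 5.48 in SAMR1, SAMP8 control and STEE-fed SAMP8. *Tnfrsf1b*, the receptor TNFR2 of immune cells and vessels, had 3.62, 3.56 and 3.29 at its brighter probe set, which placed STEE-fed mice -0.27 from the SAMP8 control. Its other probe set read 3.33, 3.32 and 3.31 and differed by -0.01, so the 2 probe sets did not differ alike. Of all 9536 low-signal genes, 55 were at least as far below the SAMP8 control as the brighter one, itself included.

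*Tnfrsf25*, death receptor 3, binds the TNF family ligand TL1A and is known mainly from T cells. It was measured by 1 probe set, with means of 3.73 in SAMR1, 3.95 in the SAMP8 control and 3.31 in STEE-fed mice. The SAMP8 control was the highest and the STEE-fed group the lowest of the 3, and the group given STEE was -0.64 from the SAMP8 control and -0.42 from SAMR1. Of all genes, 22 were at least as far lower in STEE-fed mice, 5 of them among the 9536 low-signal genes, *Tnfrsf25* included. All 3 means lay within the range of signal of the genes of other organs (2.41 to 4.96), so the probe set was not shown to be above background and the size of the difference is that of a dim probe set. Those genes differed by -0.19 to 0.15 in the same comparison. Of 6 blood leukocyte markers, 5 were in the low class and 0 passed the threshold, and their log2 levels summed to 21.94, 21.57 and 21.67 in SAMR1, SAMP8 control and STEE-fed mice.

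The TRAF adaptors link these receptors to the kinases. *Traf2*, recruited to the TNF receptors, had means of 3.62, 3.54 and 3.55 in SAMR1, SAMP8 control and STEE-fed SAMP8. *Traf3*, a brake on the noncanonical branch, had 7.90, 7.91 and 7.79, and its dimmer probe set 3.60, 3.59 and 3.55. Both probe sets of *Traf3* were lowest in STEE-fed mice, by -0.12 and -0.04 from the SAMP8 control.

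*Traf6* is the ubiquitin ligase that carries signals of the interleukin-1 and Toll-like receptors. Its brightest probe set read 5.06 in SAMR1, 4.97 in the SAMP8 control and 5.13 in STEE-fed mice, and the next 4.65, 4.51 and 4.53. The other three were in the low class, at 3.76, 3.84 and 3.72, at 3.35, 3.44 and 3.43, and at 3.38, 3.43 and 3.36. Directions were mixed: the brighter pair was lower in the SAMP8 control and the dim ones higher, against SAMR1, and differences between STEE-fed mice and the SAMP8 control ran from -0.12 to 0.16. None of the probe sets of *Traf6* passed the threshold.

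The IKK genes were above the median signal at their brightest probe sets. *Ikbkb*, the IKK kinase of the canonical branch, had 7.07, 7.05 and 7.06 in SAMR1, SAMP8 control and STEE-fed SAMP8 at the brightest of its 5 probe sets. *Ikbkg*, the regulatory subunit NEMO, had 6.18, 6.09 and 6.07 at the brightest of 6. Of its dimmer probe sets, 1 passed the threshold between the strains (3.32, 3.59 and 3.54, a difference of 0.27) and another read 4.39, 4.63 and 4.61, while the brightest differed by -0.09. *Chuk*, the kinase IKKα used by the noncanonical branch, had 7.34, 7.47 and 7.26. All 3 of its probe sets were lower in STEE-fed mice than in the SAMP8 control, by -0.21, -0.16 and -0.10, none past the threshold. The 1 probe set at 7.03, 6.87 and 6.77 reached -0.26 between STEE-fed mice and SAMR1.

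The NF-kB subunits gave small differences. *Rela*, the transactivating subunit p65, had means of 6.79 in SAMR1, 6.58 in the SAMP8 control and 6.59 in STEE-fed mice, so both SAMP8 groups lay below SAMR1, by -0.21 and -0.20. *Nfkb1*, the p105 and p50 gene, had 5.83, 5.75 and 5.73. *Nfkb2*, the p100 and p52 gene, had 4.72, 4.56 and 4.6, and its other probe set 4.04, 3.86 and 3.89. *Relb*, partner of p52, had 3.63, 3.72 and 3.60 in the low class. All 4 subunits were lower in STEE-fed SAMP8 than in SAMR1, by -0.20 to -0.03, and none passed the threshold in any comparison.

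The inhibitors that NF-kB induces had the SAMP8 control as their highest group. *Nfkbia*, encoding IkBα, had means of 8.43, 8.51 and 8.38 in SAMR1, SAMP8 control and STEE-fed SAMP8 at its brightest probe set. Its 5 probe sets were all higher in the SAMP8 control against SAMR1, by 0.04 to 0.28, and all lower in STEE-fed mice than in the SAMP8 control, by -0.19 to -0.02. The probe set at 0.28 read 6.38, 6.66 and 6.64, the single one of the 5 past the threshold, and there the STEE-fed mean was 0.26 above SAMR1. *Tnfaip3*, encoding the ubiquitin editing enzyme A20, had 5.18, 5.36 and 5.15, and its dimmer probe set 2.90, 3.10 and 2.99. Both probe sets of *Tnfaip3* were thus highest in the SAMP8 control, by 0.18 and 0.20 over SAMR1, below the threshold.

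**Figure D3:**
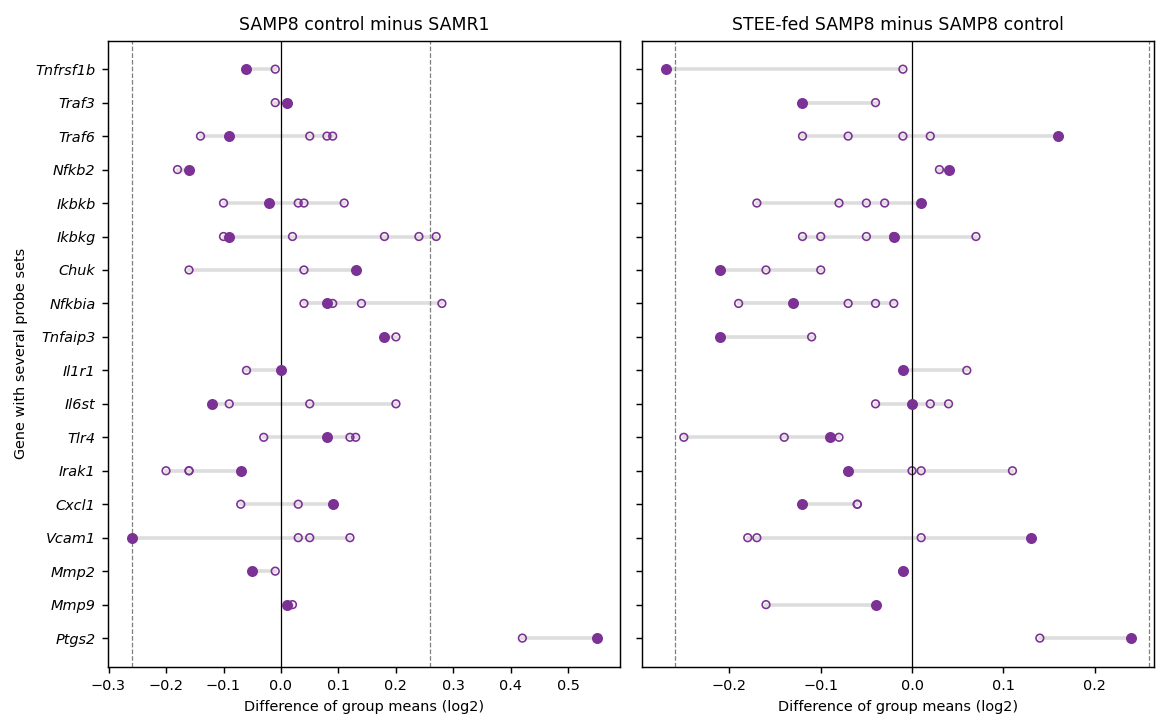
Differences of group means (log2, horizontal axis; the panels have different ranges) for every probe set of the 18 members with several, with the brightest probe set of each gene filled and the others open. Dashed lines mark 0.26 either way. The probe sets of *Nfkbia* and *Ptgs2* lie on one side of 0 in each panel, whereas those of *Vcam1* run from -0.26 to 0.12 on the left.

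Promoter sequence gives a further description of these genes. Windows of 300 bases, 250 before and 50 from the annotated start on, were taken from RefSeq (GRCm38.p6) for the 25 members that matched by symbol, and searched for the NF-kB decamer consensus on both strands, counting overlapping matches. A match was present for 10 of the 25 members (40.0%), against 2581 of 27025 genes (9.55%). The members were picked as pathway genes, among them genes that NF-kB induces, so a higher share was built into the list. A gene counted if any of its windows matched, with 34 windows for the members and 32851 for all genes. The median GC content of all windows was 52.7%, against 59.0% for the members' windows. The members with a match were *Tnfrsf25*, *Traf3*, *Nfkb2*, *Nfkbia*, *Tnfaip3*, *Il6*, *Il1r1*, *Tlr2*, *Irak1* and *Cxcl1*. The first 5 in the order of the pathway list are shown, 1 window each, and they include the receptor with the largest difference and both induced inhibitors. Each is written 5′ to 3′ on the strand of its gene, with the letters that match the consensus in capitals.
Tnfrsf25, chr4:152116093-152116392 (+): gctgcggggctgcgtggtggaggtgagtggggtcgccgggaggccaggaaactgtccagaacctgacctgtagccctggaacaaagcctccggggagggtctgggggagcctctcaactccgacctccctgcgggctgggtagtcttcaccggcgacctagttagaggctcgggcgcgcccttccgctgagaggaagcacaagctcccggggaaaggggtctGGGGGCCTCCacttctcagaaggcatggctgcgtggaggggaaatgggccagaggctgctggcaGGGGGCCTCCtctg
Traf3, chr12:111166120-111166419 (+): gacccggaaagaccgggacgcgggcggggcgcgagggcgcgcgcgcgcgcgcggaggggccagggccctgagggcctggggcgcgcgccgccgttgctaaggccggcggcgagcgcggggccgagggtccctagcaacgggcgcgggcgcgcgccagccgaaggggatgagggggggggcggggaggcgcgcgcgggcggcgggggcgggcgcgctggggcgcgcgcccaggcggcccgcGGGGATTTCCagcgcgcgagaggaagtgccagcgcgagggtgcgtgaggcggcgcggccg
Nfkb2, chr19:46304487-46304786 (+): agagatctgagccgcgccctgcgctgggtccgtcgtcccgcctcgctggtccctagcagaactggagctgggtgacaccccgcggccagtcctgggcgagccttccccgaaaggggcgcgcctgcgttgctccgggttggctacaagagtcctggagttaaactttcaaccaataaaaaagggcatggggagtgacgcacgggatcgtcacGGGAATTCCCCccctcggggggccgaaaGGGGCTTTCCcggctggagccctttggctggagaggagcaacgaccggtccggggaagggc
Nfkbia, chr12:55492598-55492897 (-): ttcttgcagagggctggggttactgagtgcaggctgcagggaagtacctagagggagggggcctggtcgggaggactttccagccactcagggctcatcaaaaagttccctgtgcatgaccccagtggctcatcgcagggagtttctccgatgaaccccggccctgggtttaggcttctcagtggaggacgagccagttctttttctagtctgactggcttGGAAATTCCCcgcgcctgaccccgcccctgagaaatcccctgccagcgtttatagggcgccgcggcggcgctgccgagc
Tnfaip3, chr10:19015361-19015660 (-): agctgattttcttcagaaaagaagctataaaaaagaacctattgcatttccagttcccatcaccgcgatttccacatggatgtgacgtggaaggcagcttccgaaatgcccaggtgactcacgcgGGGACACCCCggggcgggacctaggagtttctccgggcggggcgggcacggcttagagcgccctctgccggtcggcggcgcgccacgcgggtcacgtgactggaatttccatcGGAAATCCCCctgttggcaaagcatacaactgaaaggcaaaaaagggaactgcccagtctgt

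In the window shown for *Tnfrsf25* the matches began at -28 and 36, counting the start as 0, and in *Nfkbia* 1 match began at -29 on the opposite strand. *Nfkb2* held 4 overlapping or neighbouring matches between -39 and -11, and *Tnfaip3* 3 between -125 and -12. *Traf3* held 1, at -10. *Tnfrsf25* and *Tnfaip3* each have another annotated start, whose window held 0 matches. *Ptgs2*, *Tnf*, *Icam1* and *Rela* had no match in their windows, which says only that these letters are not there. Among the 10 members with a match, 9 were lower and 1 higher with STEE, with a median of -0.10, and among the 15 without, 7 were lower and 7 higher, with a median of 0.0. Of all genes on the array with a match, 767 were lower and 809 higher with STEE. Between STEE-fed mice and SAMR1, 9 of the members with a match were lower and 1 higher (median -0.06), and 11 of those without were lower and 4 higher (median -0.08). Between the strains, 6 members with a match were higher and 3 lower, and 6 without were higher and 9 lower, where 837 of all genes with a match were higher and 760 lower. Nothing particular to genes with a match was read from these counts. A match is a description of the letters and not of binding, and no other data on these promoters were used.

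The cytokines of the response were all of low signal. *Il1b*, the main secreted interleukin-1, had means of 4.08 in SAMR1, 4.03 in the SAMP8 control and 4.04 in STEE-fed mice. *Il1a*, its relative released by damaged cells, had 3.12, 3.20 and 3.19. *Il6* had 2.51, 2.47 and 2.44, the dimmest member. The 3 genes differed by at most 0.08 between any groups, at signals shared with genes of other organs, so a difference in their transcripts was not detectable here.

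Of the cytokine receptors, *Il1r1*, the signalling receptor of interleukin-1, had means of 3.86, 3.86 and 3.85 in SAMR1, SAMP8 control and STEE-fed SAMP8. *Il6st*, the shared signal subunit gp130 of the interleukin-6 family, had 6.78, 6.66 and 6.66. Its 4 probe sets differed in sign between the strains, and all lay within 0.04 of the SAMP8 control in STEE-fed mice.

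Among the receptors for microbial products and their adaptors, *Tlr2* had means of 3.92, 4.05 and 3.97 and *Tlr4*, the endotoxin receptor, 3.04, 3.12 and 3.03 in SAMR1, SAMP8 control and STEE-fed SAMP8. The 4 probe sets of *Tlr4* were all in the low class and all lower in STEE-fed mice than in the SAMP8 control, by -0.25 to -0.08. *Myd88*, the adaptor of both, ran the other way, at 3.75, 3.83 and 3.93, with STEE-fed mice as the highest group. *Irak1*, the kinase that MyD88 recruits, had 7.04, 6.97 and 6.90. All 4 probe sets of *Irak1* were lower in the SAMP8 control against SAMR1, by -0.20 to -0.07, with none past the threshold.

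At their brightest probe sets the chemokine genes differed by 0.12 or less. *Ccl2*, the monocyte attractant, had means of 3.10, 3.07 and 3.01 in SAMR1, SAMP8 control and STEE-fed SAMP8. *Ccl5*, which attracts T cells, had 4.09, 4.17 and 4.13. *Cxcl1*, the neutrophil attractant, had 4.94, 5.03 and 4.91, and its 3 probe sets were each lower in STEE-fed mice than in the SAMP8 control, by -0.12 to -0.06.

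*Vcam1* encodes an adhesion molecule of activated vessels that leukocytes bind. At its brightest probe set the means were 6.07 in SAMR1, 5.81 in the SAMP8 control and 5.94 in STEE-fed mice, so the SAMP8 control lay -0.26 from SAMR1, exactly at the threshold. The next probe set went the other way, at 5.53, 5.65 and 5.48, and the low ones read 3.81, 3.84 and 3.85 and 2.87, 2.92 and 2.74. The mean over its 4 probe sets differed by -0.015 between the strains, and in STEE-fed mice the brighter pair differed by 0.13 and -0.17 from the SAMP8 control, so no single direction holds for *Vcam1*. Of 9 endothelial markers, 3 passed the threshold between the strains (7.39% of all genes), with *Abcb1a* 0.91 and *Ly6c1* 0.28 higher and *Cldn5* at -0.28. None passed with STEE. By sign, 5 of the 9 were lower and 4 higher in the SAMP8 control against SAMR1. Their log2 levels summed to 48.68, 49.46 and 49.44 in the order SAMR1, SAMP8 control and STEE-fed SAMP8. In these sums *Abcb1a* alone read 4.41, 5.32 and 5.30, so they do not describe most of the markers. The part of these markers in the *Vcam1* values was not tested. *Icam1*, the companion adhesion molecule, had 2.95, 2.96 and 2.82 in the low class.

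The matrix genes were all dim. *Mmp9*, a gelatinase known for opening the barrier of brain vessels, had means of 3.32, 3.33 and 3.29 at the brighter probe set and 2.84, 2.86 and 2.70 at the other. *Mmp2*, the other gelatinase, had 3.60, 3.55 and 3.54, and *Timp1*, the inhibitor of these proteases, 3.88, 3.93 and 3.80. At their brightest probe sets all 3 genes were lower in STEE-fed mice than in the SAMP8 control, by -0.13 to -0.01. The dimmer probe set of *Mmp9* differed by -0.16, and none of these differences passed the threshold.

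Of the enzymes that make mediators, *Nos2*, the inducible nitric oxide synthase, was dim and even at 3.26, 3.19 and 3.23. *Ptgs2* makes prostaglandins and, in cortex, is also an activity-dependent gene of excitatory neurons. Its brighter probe set read 5.58 in SAMR1, 6.13 in the SAMP8 control and 6.37 in STEE-fed mice, and the other 3.58, 4.0 and 4.14. Both probe sets placed SAMR1 lowest and STEE-fed mice highest, with SAMP8 control minus SAMR1 at 0.55 and 0.42 and STEE-fed SAMP8 minus SAMP8 control at 0.24 and 0.14. Between STEE-fed SAMP8 and SAMR1 the difference was 0.79 at the brighter probe set, or 1.73-fold, and 0.56 at the other. Of all genes, 204 were at least as far above SAMR1 in the SAMP8 control, 192 of them among the 12991 above the median signal, *Ptgs2* included.

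Read by probe set rather than by gene, 5 of the 76 member probe sets passed the threshold in the strain comparison, against 7.78% of all probe sets. They were the pair for *Ptgs2*, 1 each for *Nfkbia* and *Ikbkg*, and the lower one for *Vcam1*. In the STEE comparison there were 2, against 2.3%, for *Tnfrsf25* and *Tnfrsf1b*. Between STEE-fed mice and SAMR1 there were 6, against 8.62%. Of the 18 members with several probe sets, all pointed one way for 8 in the strain comparison and for 11 in the STEE comparison. The same was not counted over all genes with several probe sets.

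The order of the 3 groups also differed among members. The SAMP8 control was the highest of the 3 for 14 members, *Tnfrsf25*, *Chuk*, *Nfkbia*, *Tnfaip3* and *Tlr2* among them, and the lowest for 9, such as *Tnf*, *Traf6* and *Vcam1*. The means went down in the order SAMR1, SAMP8 control, STEE-fed SAMP8 for 8, such as *Tnfrsf1a*, *Nfkb1* and *Irak1*, and up for 2, *Myd88* and *Ptgs2*. A tie was present in 2. With neighbouring means often 0.01 to 0.1 apart and no spread between mice, most of these orders rest on differences that carry no error. The orders were not counted over all genes. As the SAMP8 control mean enters both differences, nothing particular to the pathway was read from these orders.

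A wider list of 70 pathway genes was read in the same way, and 68 were found on the array. Between the strains, 1 was past the threshold upward and 4 downward, 7.35% in all against 7.39% of all genes, so the genes named next are a description of a list at the array-wide share. *Cyld*, a deubiquitinase that restrains NF-kB, had means of 7.69 in SAMR1, 7.98 in the SAMP8 control and 7.96 in STEE-fed mice. *Il1rap*, the accessory chain of the interleukin-1 receptor, had 5.95, 5.56 and 5.98, so the SAMP8 control was -0.39 from SAMR1 and STEE-fed mice 0.42 above the SAMP8 control. *Lta*, encoding lymphotoxin alpha, had the same shape at low signal, with 3.44, 3.09 and 3.35.

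The remaining genes below SAMR1 kept that position with STEE. *Il6ra*, the binding chain of the interleukin-6 receptor, had means of 4.71, 4.44 and 4.46, and *Timp3*, a matrix-bound protease inhibitor, 7.45, 7.08 and 7.18. In the STEE comparison, 2 of the 68, *Il1rap* and *Lta* (0.26), were past the threshold upward, against the 1.23% of all genes given above. No gene of the IKK-related kinases (8 genes) or the other NF-kB and IkB proteins (5 genes) passed in either comparison.

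**Figure D4:**
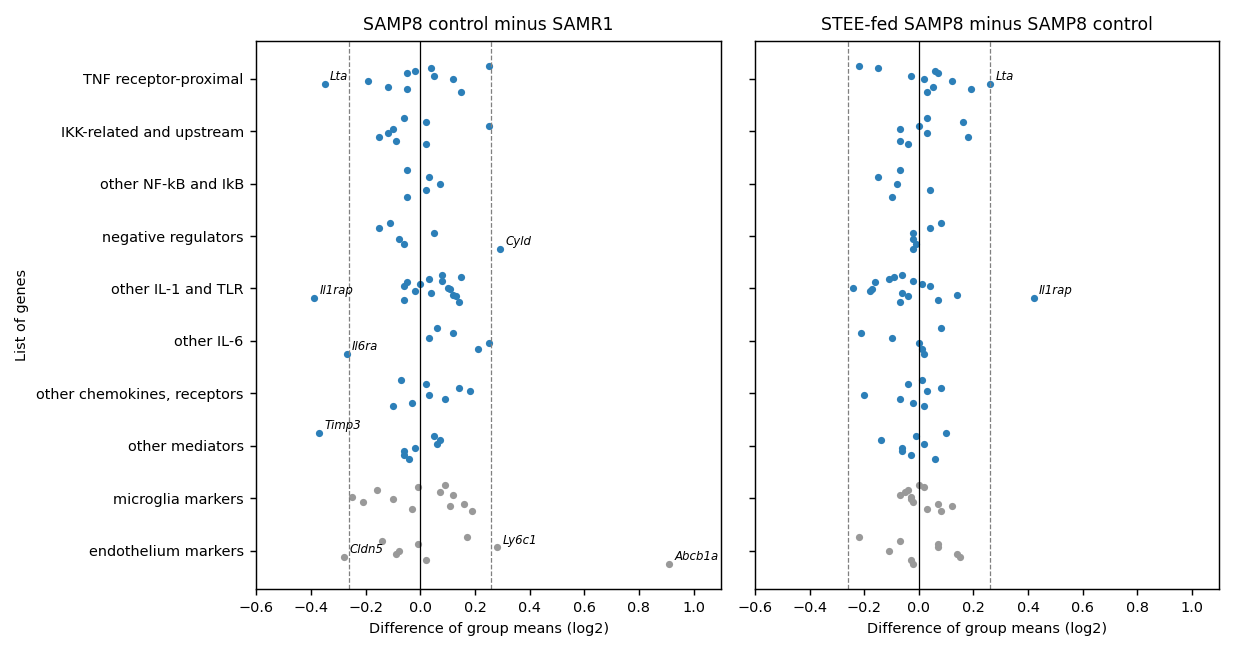
Difference of group means (log2, horizontal axis) for 68 further pathway genes in blue, arranged by list, and for microglial and endothelial markers in grey, with SAMP8 control minus SAMR1 on the left and STEE-fed SAMP8 minus SAMP8 control on the right. Each point is 1 gene at its brightest probe set, dashed lines mark 0.26 either way, and genes past them are named, among them *Il1rap* at -0.39 on the left and 0.42 on the right.

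Markers of the cells that carry this pathway were read beside it. Of 12 microglial markers 11 were above the median signal (*Itgam* was not), 0 passed the threshold in either comparison, and their log2 levels summed to 73.87, 73.85 and 73.93 in SAMR1, SAMP8 control and STEE-fed SAMP8. All 8 markers of excitatory cortical neurons were above the median signal, matching the cortex label, and 3 of them were higher with STEE, *Cux2* by 0.30, *Tbr1* by 0.29 and *Fezf2* by 0.27, with sums of 62.39, 62.36 and 63.57. Of 6 markers of choroid plexus and meninges, *Ttr* stood apart, at 10.20, 8.24 and 9.33, with sums over the list of 30.71, 28.44 and 29.41. Astrocyte and erythrocyte markers had 0 of 7 and 0 of 5 past the threshold in both comparisons, where the globin genes among the latter share probe sets in pairs and are not separate measurements. The part of these cell types in the values of *Ptgs2*, *Tnfrsf25* and the other members was not tested.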

How the data were processed

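RNA of cerebral cortex from 6 mice was amplified with a 3′ IVT kit and read on Affymetrix mouse array strips of the PM (perfect match) type. The authors summarised the intensities with RMA in Expression Console and averaged them per group in Transcriptome Analysis Console, and the log2 group means deposited by the authors, named bi-weight averages and rounded to 2 decimals, were the values used. RMA quantile-normalises arrays, which leaves a shift shared by all genes unseen, and differences at low signal are compressed on this scale. The tables also hold the authors' fold changes, ANOVA p-values and FDR p-values, which were not used. The SAMP8 control means of both tables differed by 0.0 at most, so the 3 groups shared one scale.

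Differences of group means were computed with Python 3.11.15, pandas 2.3.3 and numpy 2.4.6, without a test, since no values per mouse were used and the precision is limited by 2 arrays per group. Samples were grouped by their labels. Each gene was read at its probe set with the highest mean of the 3 groups, and all members were named, with all probe sets of *Traf6*, *Tnfrsf25*, *Vcam1* and *Mmp9*. Of the probe sets, 5694 carried no symbol. Of the 70 further pathway genes *Tnfsf15* and *Ticam2* were not found by symbol, and 1 more gene of the planned list is not reported here. The steps were tested on simulated data. Members and lists were chosen with earlier results of these data known. Alternatives were other thresholds, other ways to pick probe sets, and centring.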

Additional observations from a re-analysis of the deposited data

How the results depend on the processing

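No paired analysis was possible because the tables hold group means only, and no mouse could be left out for the same reason. At a threshold of 0.14, 3 members were higher and 4 lower in the strain comparison (12.4% of all genes in each direction), 3 and 5 in the STEE comparison (7.73% and 7.44%), and 2 and 5 between STEE-fed mice and SAMR1 (13.9% and 12.7%). At 0.58 the counts were 0 and 0 in the strain comparison (0.808% and 0.377% of all genes). They were 0 and 1 (*Tnfrsf25*) in the STEE comparison (0.0621% and 0.111%). Between STEE-fed mice and SAMR1 they were 1 (*Ptgs2*) and 0 (0.839% and 0.386%). With a gene read as the mean of all its probe sets, the lower count was 0 in the strain comparison, where *Vcam1* was lost (2.35% of all genes). It was 1 in the STEE comparison, where *Tnfrsf1b* was lost (0.693%), and 1 between STEE-fed mice and SAMR1 (2.29%). Centring the group means on their medians also gave a lower count of 0 in the strain comparison (3.19% of all genes), as *Vcam1* sits at the threshold. Leaving out probe sets marked as shared between transcripts drops *Tnfrsf25* and leaves 30 members. The lower count was then 1 in both comparisons of STEE-fed mice (1.03% of all genes against the SAMP8 control, 3.16% against SAMR1). Among the 16 members above the median signal the lower count was 0 in both, since *Tnfrsf25* and *Tnfrsf1b* are dim. Of all genes in that class, 1.34% were lower against the SAMP8 control and 4.56% against SAMR1. Probe sets with 1 symbol, and the SAMP8 control mean of the other table, changed none of these counts, and no median of the members moved by more than the median absolute difference of all genes. The limits are 2 mice per group, averages without a spread, and signals of 21 members no higher than the brightest of the genes of other organs.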
